A study of Mus musculus with 4 samples.

Results

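The aquaporins are a family of membrane channels, and 10 of their mouse genes were followed here in testes of mice that lacked Lhcgr, the receptor for luteinizing hormone. The genes are Aqp1 to Aqp9 and Aqp11. They were chosen by name from the gene symbols of the array's probe sets, among 19938 genes measured. The rule took the probe set with the highest mean over the arrays for each gene, but each of the 10 had 1 probe set, so that mean decided nothing. The family was taken up with the low level of Aqp8 in the knockout already known, so the values of Aqp8 are given as a description, without a test.

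The samples were total RNA from testes, 2 labelled Lhcgr KO and 2 labelled control WT, each read on a 1-colour Affymetrix whole-transcript array. All 4 came from male mice given busulfan at 44 mg/kg, with tissue taken 4 weeks later. Busulfan is an alkylating drug that kills germ cells, and the controls received it too. The sources used here do not give the knockout allele, the strain, the age of the mice or whether RNA of several animals was pooled. Nothing in the labels says that replicates were separate animals, so the p-values cover only how far these arrays varied, and that variation may be technical.

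Aquaporins form tetramers in which each subunit has its own pore. The classical members pass mainly water, the aquaglyceroporins Aqp3, Aqp7 and Aqp9 pass glycerol and other small solutes as well, and Aqp11 belongs to a more distant branch found in intracellular membranes. In the testis and its ducts, fluid secreted by Sertoli cells carries sperm through the seminiferous tubules and is taken up again in the efferent ducts. Aqp8 is known from the seminiferous tubules, including Sertoli cells, Aqp7 and Aqp11 from spermatids, Aqp9 from Leydig cells and the epididymis, and Aqp1 from the efferent ducts and from blood vessels.

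Aqp8 and Aqp11 had the largest differences in the family, in opposite directions, and the 250 bases before their start sites are shown for that reason. Both come from RefSeq on GRCm38.p6 and are written in the direction of transcription, Aqp8 at chr7:123462044-123462293 on the plus strand and Aqp11 at chr7:97738248-97738497 on the minus strand.
Aqp8: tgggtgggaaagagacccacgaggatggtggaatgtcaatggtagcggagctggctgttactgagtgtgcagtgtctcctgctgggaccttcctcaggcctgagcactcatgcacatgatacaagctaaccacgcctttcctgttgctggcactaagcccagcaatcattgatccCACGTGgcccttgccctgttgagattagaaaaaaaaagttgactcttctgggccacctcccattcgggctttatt
Aqp11: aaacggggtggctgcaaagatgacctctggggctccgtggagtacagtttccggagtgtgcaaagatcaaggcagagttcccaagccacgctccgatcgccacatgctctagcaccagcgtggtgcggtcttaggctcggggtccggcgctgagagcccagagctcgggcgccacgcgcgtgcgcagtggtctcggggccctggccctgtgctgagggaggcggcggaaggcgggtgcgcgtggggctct
Capitals mark the letters CACGTG, the core of an E-box, which reads the same on both strands. The Aqp11 stretch is richer in G and C, at 67.2% against 52.4% for Aqp8, and holds 23 CG pairs against 5, while the median over all 32851 RefSeq promoters was 52.4% and 6 pairs in the same 250 bases. RefSeq promoters were found for 9 of the 10 genes.

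In all, 11 short motifs were searched on both strands of the 250 bases, and the E-box was picked for display after its match in Aqp8 had been seen. It stood in 4 of the 9 genes, Aqp8, Aqp2, Aqp5 and Aqp6, and in 6.02% of all promoters. The 9 genes have 11 promoters, and a gene was counted if any of them matched, while shares of all are per promoter. The 4 matches are set out with 12 bases on either side, from RefSeq on GRCm38.p6, all on the plus strand: chr7:123462207-123462236 for Aqp8, chr15:99578986-99579015 for Aqp2, chr15:99590929-99590958 for Aqp5 and chr15:99601159-99601188 for Aqp6.
Aqp8: aatcattgatccCACGTGgcccttgccctg
Aqp2: cctcctccacccCACGTGcccaggtctacg
Aqp5: tgccgcgtgggtCACGTGgcccgggcgggt
Aqp6: agctggaacagaCACGTGagcactctgaac
Counted from its first letter, the motif lies 75 bases before the start site of Aqp8, 58 before that of Aqp2, 87 before that of Aqp5 and 29 before that of Aqp6. The core letters of the androgen receptor motif, AGAACA, stood in the promoters of Aqp2, Aqp7 and Aqp9 and in 16.1% of all promoters. Those of the NR5A1 motif, AAGGTCA, stood in none of the 9 genes and in 4.08% of all promoters, and TGACG, the core of a cyclic AMP response element, stood in Aqp2 and in 17.8% of all. A match is a run of letters only, and it was not read as a bound site.

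Values are log2 of the deposited intensity, and differences are knockout minus wild type, estimated with limma over all 19938 genes. Array medians ran from 198 to 215 intensity units, and the lowest deposited value was 16. In this comparison 618 genes passed a Benjamini-Hochberg adjusted p of 0.05, which is 3.1% of those tested, and the median difference of all genes was 0.07. Values of Lhcgr are not analysed here, so the labels were not checked on the targeted gene. Of 10 Sertoli cell markers, Sox9 lay between 11.35 and 11.68 and Cldn11 between 12.33 and 12.41 log2 units over the arrays. Others differed between the groups: Trf and Eppin passed the threshold as lower in the knockout and Amh as higher. Some markers of epididymis and efferent duct were high on 1 array, control WT replicate 2, which is taken up with Aqp9 and Aqp6. In such bulk tissue, fewer cells of a type and less RNA per cell cannot be told apart.

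Aqp8 (probe set 10557300), a channel that also passes ammonia and hydrogen peroxide, was the family member that separated the genotypes most. Its level was 6.43 and 7.37 log2 units in knockout replicates 1 and 2, and 10.73 in both wild-type replicates. In intensity units these were 86.3 and 165.8 in the knockout against 1701 in each wild type. Both knockout arrays lay far below both wild-type arrays, with 3.36 log2 units between the nearest values of the groups. The wild-type arrays were nearly identical, whereas the knockout arrays differed by 0.94 log2 units. The group means were 6.90 ± 0.67 (SD, n = 2) and 10.73 ± 0.00 (SD, n = 2), a log2 difference of -3.83 ± 0.28 (SE). On the linear scale the ratio of wild type to knockout was 14.2.

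The level of Aqp8 in knockout replicate 1 lay under the lower quartile of all probe sets, which ran from 94.3 to 106.9 intensity units over the arrays, and replicate 2 lay above it. The knockout signal was not tested for being above background, so the ratio of 14.2 is not an exact fold and may understate the difference. Adding a further 32 units before the log2 step gave a difference of -3.50. With 1 array left out at a time it ran from -4.30, without knockout replicate 2, to -3.36, without knockout replicate 1, so the knockout arrays set how large it is.

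**Figure D1:**
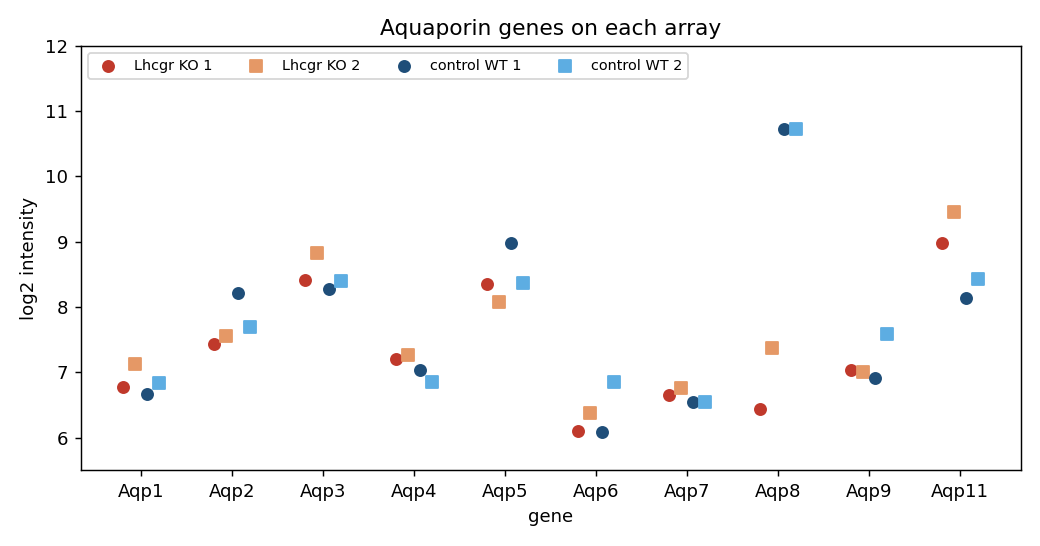
Log2 intensity (vertical axis) of the 10 aquaporin genes on each array, with knockout arrays in red and orange and wild-type arrays in blue. Aqp8 lies at 6.43 and 7.37 in the knockout and at 10.73 on both wild-type arrays, while the widest range over the 4 arrays among the other 9 genes is 1.31 log2 units, in Aqp11.

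The other classical channels showed small differences. Aqp1, the water channel of red blood cells, vessels and efferent ducts, measured 6.78 and 7.13 in the knockout and 6.67 and 6.84 in the wild type. The groups overlapped, with a log2 difference of 0.19 (95% interval -0.17 to 0.56, adjusted p = 0.446). Aqp4, the channel of astrocyte end-feet, measured 7.20 and 7.26 in the knockout and 7.03 and 6.85 in the wild type. Both knockout arrays were higher, but the log2 difference of 0.29 did not pass the test (95% interval 0.00 to 0.58, adjusted p = 0.216).

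Aqp2, Aqp5 and Aqp6 lie side by side on the same chromosome, and each had a negative difference that did not pass the test. Aqp2, the vasopressin-regulated channel of the kidney collecting duct, measured 7.43 and 7.56 in the knockout and 8.21 and 7.70 in the wild type. Aqp5, the channel of secretory glands, measured 8.35 and 8.07 in the knockout and 8.97 and 8.36 in the wild type. In both genes wild-type replicate 1 stood above the other arrays, and the nearest values of the groups were 0.14 log2 units apart for Aqp2 and 0.02 for Aqp5. The log2 differences were -0.46 for each, with 95% intervals of -0.89 to -0.03 for Aqp2 and -0.97 to 0.05 for Aqp5 (adjusted p = 0.203 and 0.251). Aqp6, which sits in vesicles of kidney intercalated cells, measured 6.10 and 6.37 in the knockout and 6.08 and 6.85 in the wild type. Its groups overlapped, with a log2 difference of -0.23 (95% interval -0.83 to 0.36, adjusted p = 0.571).

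Of the aquaglyceroporins, none passed the test. Aqp3, a glycerol and water channel of epithelia, measured 8.41 and 8.83 in the knockout and 8.28 and 8.40 in the wild type. The nearest values of the groups were only 0.01 log2 units apart, and the difference was 0.28 (95% interval -0.10 to 0.67, adjusted p = 0.320). Aqp7, the glycerol channel of fat cells that spermatids also carry, measured 6.66 and 6.77 in the knockout and 6.55 and 6.54 in the wild type. Its difference of 0.17 had an interval that includes 0 (95% interval -0.10 to 0.44, adjusted p = 0.371). Of 10 spermatid markers none passed the test, and their summed intensity was 1250 and 1379 in the knockout and 1747 and 1171 in the wild type. Most of the gap between the wild-type arrays came from Prm2, at 494 and 169 intensity units, and Odf1, at 194 and 102. Acrv1, Tnp1, Akap4, Tssk6 and Catsper1 lay among the lowest 25% of genes. The 6 adipocyte markers, none past the test, summed to 795 and 943 in the knockout and 696 and 677 in the wild type. Most of that gap came from Plin1, at 304 and 376 against 226 and 229 intensity units. Adipoq, Cidec, Fabp4 and Lep lay among the lowest 25% of genes. The part of either cell type in the level of Aqp7 was not tested. Aqp9, which passes glycerol, urea and other solutes, measured 7.03 and 7.00 in the knockout and 6.91 and 7.58 in the wild type. The groups overlapped, and the difference was -0.23 (95% interval -0.74 to 0.28, adjusted p = 0.513).

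Aqp11 (probe set 10565627), an intracellular channel of the endoplasmic reticulum, was higher on both knockout arrays. It measured 8.98 and 9.46 in the knockout and 8.14 and 8.43 in the wild type, which is 503 and 703 against 283 and 345 intensity units. The groups did not overlap, and their nearest values were 0.55 log2 units apart. The group means were 9.22 ± 0.34 (SD, n = 2) and 8.29 ± 0.20 (SD, n = 2). The log2 difference of 0.93 ± 0.19 (SE) corresponds to 1.91-fold, with a 95% interval of 1.40 to 2.60, and its adjusted p of 0.0559 missed the threshold. It passed in 6 of 13 other settings, with adjusted p-values between 0.0227 and 0.0479, among them the fit without wild-type replicate 2 (log2 difference 1.07, adjusted p = 0.0286). Over all 13 the adjusted p ran from 0.0227 to 0.275, the highest being without knockout replicate 2.

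**Figure D2:**
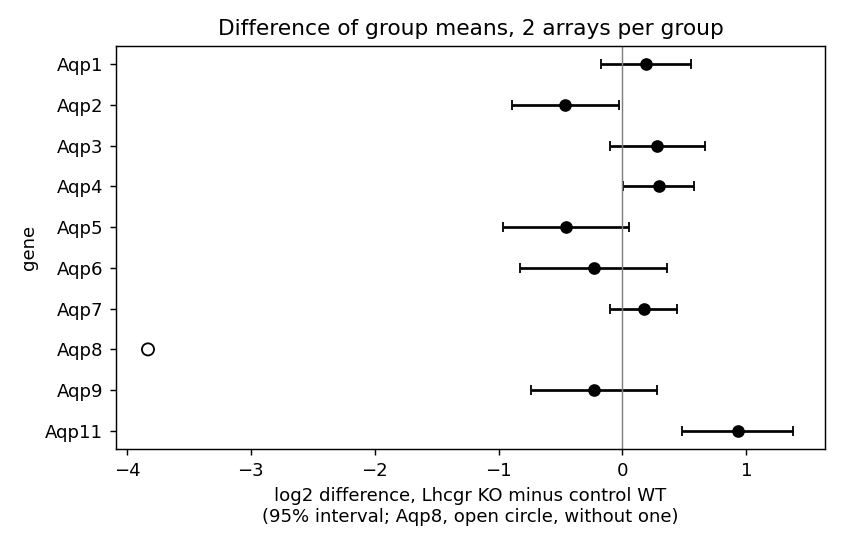
Difference of group means in log2 intensity, knockout minus wild type (horizontal axis), for each aquaporin gene with its 95% interval from limma, 2 arrays per group. Aqp8, the open circle, lies at -3.83 and has no interval because it was chosen for this difference, Aqp11 at 0.93, and the other 8 genes between -0.46 and 0.29.

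Aside from Aqp8, 0 of 9 aquaporin genes passed the adjusted threshold in limma, against 3.1% of all genes. At an unadjusted p of 0.05, 3 of the 9 passed, namely Aqp2, Aqp4 and Aqp11, against 22.7% of all genes. Both knockout arrays lay above both wild-type arrays in 4 of the 9 (Aqp3, Aqp4, Aqp7 and Aqp11), while 36.8% of all genes did so. Both lay below in 2 of the 9 (Aqp2 and Aqp5), against 22.4% of all genes. With 2 arrays in each group, such an order is common, and the shares in the family are near those of all genes. The median log2 difference was 0.17 for the 9 genes, beside 0.07 for all genes. Within the knockout pair, replicate 2 was the higher array in 8 of the 10 family members, with Aqp5 and Aqp9 as the exceptions, and in 53.4% of all genes.

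Aqp6 and Aqp9 were highest on control WT replicate 2. On that array Aqp9 was 0.55 and Aqp6 0.48 log2 units above the highest of the other 3 arrays. The same array carried high levels of some markers of epididymis and efferent duct. Of 16 such markers measured, 8 exceeded each of the other arrays there by over 1 log2 unit. Adam7, an epididymal gene, led with 5.12 log2 units, followed by Rnase12 with 3.93. The rest lay below the highest other array, from -0.11 log2 units for Pax2 through -0.62 for Esr1 to -1.09 for Cst11. Pax8 and Cdh16, genes of duct epithelium, exceeded the other arrays by 1.47 and 1.72. The summed intensity of the 16 markers was 8089 on this array, 2362 on the other wild-type array, and 2494 and 2620 on the knockout arrays. Without control WT replicate 2 the differences turned positive, to 0.11 for Aqp9 (adjusted p = 0.788) and 0.15 for Aqp6 (adjusted p = 0.715). Aqp1, which efferent ducts also express, was not highest on this array. It measured 6.84 there, above control WT replicate 1 (6.67) and knockout replicate 1 (6.78) but below knockout replicate 2 (7.13). Its signal was weak, and it lay among the lowest 50% of genes. Aqp8 differed by 0.00 log2 units between the wild-type arrays, and its difference from the knockout was -3.83 without this array as well. The part of duct tissue in the levels of Aqp9 and Aqp6 was not tested.

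**Figure D3:**
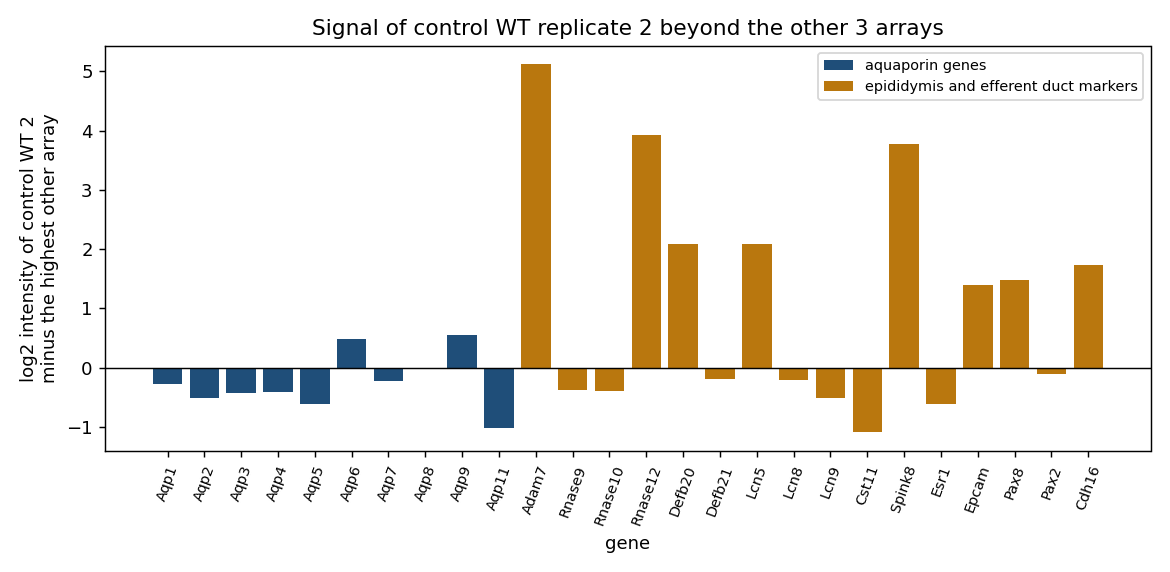
Log2 intensity of control WT replicate 2 minus the highest of the other 3 arrays (vertical axis), for the 10 aquaporin genes in blue and 16 markers of epididymis and efferent duct in brown. Aqp9 and Aqp6 rise above 0 by 0.55 and 0.48, Aqp8 sits at 0, and 8 markers exceed 1, while the rest of the markers lie below 0.

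Markers of several cell types moved with the low level of Aqp8, and their values are given beside it. Fell and rose mean here past the adjusted threshold, as 3.1% of all genes were, 426 lower and 192 higher. Of 8 Leydig cell markers, 5 fell and 7 had negative differences, with a list median of -1.87. Cyp17a1 (-1.43) and Hsd17b3 (-1.95) were lower but did not pass, and Nr5a1 was at 0.02. The summed intensity of the 8 markers was 5181 and 4192 in the knockout and 24762 and 13657 in the wild type. In the wild type, replicate 2 minus replicate 1 had a median of -0.96 log2 units over these markers. It ran from -2.81 for Sult1e1, an estrogen sulfotransferase, through -0.41 for Star, the cholesterol carrier of steroid synthesis, to 0.11 for Hsd3b6, a steroid dehydrogenase, and was 0.00 for Aqp8. Of 10 Sertoli cell markers, 2 fell and 1 rose, and their summed intensity was 23543 and 24532 in the knockout and 29303 and 27222 in the wild type. The 2 that fell were Eppin and Trf. Eppin measured 576 and 970 intensity units in the knockout against 4420 and 3499 in the wild type. Trf measured 302 and 304 against 1136 and 1941. The lower sum in the knockout rests on these 2 genes. Amh was the marker that rose, with a log2 difference of 0.80. For Eppin, a protease inhibitor of Sertoli cells, replicate 2 minus replicate 1 was 0.75 log2 units in the knockout and -0.34 in the wild type. For Trf, transferrin, it was 0.01 and 0.77, and for Aqp8 0.94 and 0.00.

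Of 9 macrophage markers 4 passed the test as lower, against 3.1% of all genes in either direction. All 9 had negative differences, with a median of -0.85, and their sums were 3973 and 4206 in the knockout and 7136 and 8810 in the wild type. Of 8 endothelial markers 1, Sox18, rose, with sums of 2802 and 2903 against 2327 and 2240. The higher knockout sum rests on Cdh5, at 1203 and 1169 against 926 and 698 intensity units, and Sox18, at 480 and 602 against 259 and 272. The list median was 0.12, and 3 of the 8 had negative differences, the largest for Kdr at -0.81, which did not pass. Of the 2 red blood cell genes measured, Alas2, a heme synthesis enzyme, fell, from 9.40 and 9.61 log2 units in the wild type to 6.40 and 7.28 in the knockout, where the arrays differed by 0.87. Slc4a1, an anion exchanger of red blood cells, measured 7.09 and 7.35 in the knockout against 7.00 and 7.03, a difference of 0.20 that did not pass, so the summed intensity of 221 and 318 against 803 and 910 rests on Alas2. The part of any of these cell types in the level of Aqp8 was not tested.

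The genes whose values over the 4 arrays lay nearest to those of Aqp8, after the mean of each gene was taken away, were Ces1d, Rnf128, Bhmt, Actn3 and Hsd3b3. The measure was the Euclidean distance over 4 arrays in log2 units, at 0.33 for Ces1d, 0.69 for Rnf128, 0.77 for Bhmt, 0.82 for Actn3 and 0.86 for Hsd3b3. Ces1d, a carboxylesterase, measured 5.42 and 6.09 in the knockout and 9.90 and 9.62 in the wild type. Rnf128, a ubiquitin ligase, measured 6.30 and 6.80 against 9.70 and 10.44. Bhmt, a homocysteine methyltransferase, measured 6.39 and 6.67 against 10.87 and 10.01. Between the nearest values of the groups lay 3.53 log2 units for Ces1d, 2.90 for Rnf128 and 3.34 for Bhmt, and none of the 3 had wild-type arrays as close as those of Aqp8. Hsd3b3 belongs to a family of similar genes whose probe sets can share signal.

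**Figure D4:**
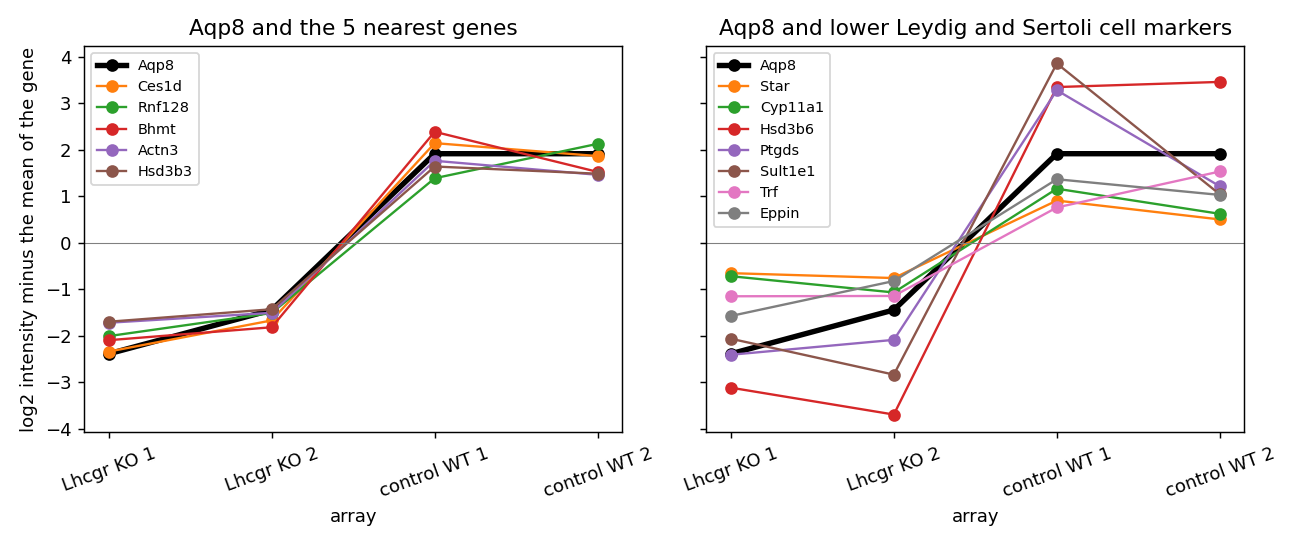
Log2 intensity minus the mean of the gene (vertical axis) on the 4 arrays, with Aqp8 as the thick black line, beside its 5 nearest genes on the left and the Leydig and Sertoli cell markers that fell on the right. Lines only join the values of a gene. The left genes were picked for lying near Aqp8, so their likeness is no finding. The right genes were picked for being lower in this comparison, so their low knockout values are no finding either. Leydig and Sertoli cell markers that did not pass as lower are not shown. On the right, the wild-type gap, replicate 2 minus replicate 1, runs from -2.81 log2 units for Sult1e1 to 0.77 for Trf.

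The neighbours of Aqp8 on its chromosome, by RefSeq order of protein-coding genes, did not pass the test. Lcmt1, a methyltransferase, measured 8.82 and 8.86 in the knockout and 8.84 and 9.04 in the wild type, with a log2 difference of -0.10 (adjusted p = 0.617). Zkscan2, a zinc finger gene on the other side, measured 7.45 and 7.44 against 7.15 and 7.49, with a difference of 0.13 (adjusted p = 0.583). Both neighbours overlapped between the genotypes. Of the measured neighbours of the other aquaporin genes, Aldh1a2 next to Aqp9, an enzyme that forms retinoic acid, was the one that passed the test, with 6.90 and 6.87 in the knockout against 8.87 and 8.33 and a difference of -1.72 (adjusted p = 0.00813). It was named after its values were seen. Aqp9 itself overlapped between the groups.

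The family's remaining measured genes, Mip, the water channel of the eye lens, and Aqp12, a pancreatic channel, did not pass the test. Their log2 differences were 0.31 (adjusted p = 0.353) and 0.26 (adjusted p = 0.226).

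Genes that handle the same solutes or drive water flow were taken as lists. Together with Mip and Aqp12, these lists held 58 measured genes, of which 4 passed the test, against 3.1% of all genes. The 4 were lower in the knockout, as were 426 of the 618 genes called over the whole array, with 192 higher. Of 10 genes of glycerol handling, 2 fell and none rose, with a median log2 difference of -0.26. Mgll, the lipase that frees glycerol from monoacylglycerol, measured 6.47 and 6.43 in the knockout and 7.44 and 7.66 in the wild type, a difference of -1.10 ± 0.12 (SE, adjusted p = 0.00943). Gpd1, glycerol-3-phosphate dehydrogenase, measured 9.40 and 9.95 against 10.64 and 10.90, a difference of -1.09 ± 0.20 (SE, adjusted p = 0.0408). The groups of both genes stood clear of each other, and Gpd1 missed the threshold after quantile normalization (adjusted p = 0.0670) and without wild-type replicate 2 (adjusted p = 0.0587). Of 5 urea and ammonia channels, 1 fell, with a list median of -0.03. Rhbg, an ammonia channel, measured 6.32 and 6.20 in the knockout and 7.46 and 7.05 in the wild type, a difference of -0.99 ± 0.16 (SE, adjusted p = 0.0273). Signal was weak in the knockout for Rhbg, at 79.7 and 73.7 intensity units, and for Mgll, at 88.6 and 86.4. These values lay under the lower quartile of all probe sets.

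Of 15 genes of ion transport that drives fluid across epithelia, 1 fell, with a list median of -0.20. Car4, a carbonic anhydrase on the cell surface, measured 6.88 and 6.70 in the knockout and 7.87 and 7.75 in the wild type, a difference of -1.02 ± 0.12 (SE, adjusted p = 0.0117). Its knockout signal was weak too, at 117.8 and 104.0 intensity units, and it lay among the lowest 50% of genes. Of 11 genes of vasopressin and oxytocin signalling none passed, with a median of 0.20, and the lowest p belonged to Avp, the vasopressin gene, at 0.52 (adjusted p = 0.110). Of 11 genes of osmolyte and volume regulation none passed, with a median of -0.10, and the lowest p belonged to Slc5a3, the myo-inositol transporter, at -0.49 (adjusted p = 0.0947). Of 4 membrane partners of Aqp4 none passed, with a median of 0.15, and the lowest p belonged to Dtna, a dystrobrevin, at 0.20 (adjusted p = 0.315). The median of all genes was 0.07. None of the 4 lower genes passed when either knockout array was left out, where 18 genes passed in all without replicate 1 and 23 without replicate 2.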

How the data were processed

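Testis RNA of 2 knockout and 2 wild-type samples was read on 1-colour arrays. The deposited table gives 1 linear intensity per probe set and array; how the authors summarized, background-corrected and normalized it is not given in the sources used here, and the submitters' processing notes name mm9. The annotation of the platform names 1 gene for 21789 of the 28856 probe sets, several for 1621 and none for 5446; the last 2 kinds were not used. The highest-mean probe set stood for a gene. Log2 values were fitted with limma 3.58.1 in R 4.3.3 (lmFit, eBayes, no covariates, no filter), two-sided, with Benjamini-Hochberg adjustment over 19938 genes. All 10 symbols matched RefSeq by Entrez number.

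The aquaporin genes, the gene lists and the tests were chosen with earlier results of these data known. Named were all 10 aquaporins, Mip, Aqp12, up to 3 genes past the threshold with the largest difference in each list or else that with the lowest p, the 5 genes nearest to Aqp8, and its neighbours. Cell type genes, neighbours beyond Aqp8 and the motifs were picked for display after their values were seen. No detection calls were used, and the small number of arrays limits the precision. Other settings were quantile normalization, median centring, an offset of 32, leaving out the weakest 25% or 50% of genes, averaging probe sets, other variance priors, leaving out each array and a replicate block.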

Additional observations from a re-analysis of the deposited data

How the results depend on the processing

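With all 4 arrays the log2 difference of Aqp8 ran from -3.86, after quantile normalization, to -3.50, with 32 units added before log2. With 1 array left out it ran from -4.30 to -3.36, which restates the gap between the knockout arrays and says nothing more of its stability. Of the other 9 aquaporin genes, 0 passed with all arrays and in 7 settings, and 1, Aqp11, passed with 32 units added before log2, with the lowest 50% of genes left out, with either other variance prior (trend or robust), and with the replicate block. With arrays left out that count ran from 0 to 1. The lowest 25% and 50% of genes by mean held 2 and 6 aquaporin genes, which were then not tested. Of the list genes, 4 passed, against 1, Gpd1, with the lowest 50% left out, where Mgll, Car4 and Rhbg were left out and so not tested. Of all genes 618 passed, and 18 to 1039 with arrays left out, where the group with 1 array is assumed to vary like the other.

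Signs turned, with no call, as wild-type arrays were left out. Without replicate 1 and replicate 2 the log2 difference was -0.57 and 0.11 for Aqp9, -0.62 and 0.15 for Aqp6, -0.20 and 0.00030 for Lcmt1, and -0.042 and 0.30 for Zkscan2. The cause was not tested in any of these. With the replicate number as a block, 572 genes and 5 list genes passed and the difference of Aqp8 was -3.83. The gaps between replicates in the knockout and the wild type had a correlation of 0.02 across genes. Whether same-numbered arrays share a batch or a pairing cannot be told from a single gap per group. The call of Aqp11 under the block (adjusted p = 0.0227) was the only one that changed among the aquaporins. Weak signal limits Aqp6 and Aqp7, which lie among the lowest 25% of genes.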
